A study of Homo sapiens with 6 samples.

Results

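The genes described here are 45 genes of the response to low oxygen and of glycolysis, out of 60664 genes in the deposited table. They were chosen by name, as factors and targets of hypoxia-inducible factor (HIF) and as enzymes and transporters of glycolysis, and all 45 names matched 1 Ensembl gene each. By role they are 5 HIF factors and oxygen sensors, 17 HIF targets outside glycolysis, 4 glucose and lactate transporters and 19 glycolytic enzymes and their regulators. RNA was sequenced from 6 cultures of the ovarian carcinoma line SKOV3, a human established line. In 3 cultures (shJUP 1 to 3) JUP was knocked down with a short hairpin RNA, and 3 cultures (shNC 1 to 3, genotype WT) carried a control hairpin. JUP encodes plakoglobin, a linker in cell junctions of both desmosome and cadherin type. The labels call the replicates independent biological ones. The sources used here do not give the number of hairpins, whether the cells are 1 clone, the oxygen tension or the glucose in the medium. Lower JUP and anything else a hairpin does to the cells cannot be told apart in this design.

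HIF is a pair of proteins, an alpha subunit (HIF-1 alpha from HIF1A, or HIF-2 alpha from EPAS1) and a constitutive beta subunit (ARNT). With oxygen present, prolyl hydroxylases such as those from EGLN1 and EGLN3 mark the alpha subunit, and the VHL ubiquitin ligase has it degraded, so HIF activity is set mainly at the protein and is read in RNA through its target genes. Many glycolytic genes are HIF targets, and carcinoma cells commonly run glycolysis at a high rate also with oxygen present. These are RNA levels, and neither HIF protein, oxygen use nor lactate was measured.

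HIF binds DNA at a short core within hypoxia response elements. The core searched was ACGTG, and equally the form that begins with G, which is GCGTG. The 250 bases before the RefSeq start (GRCh38.p14) were read for 41 of the 45 genes. BNIP3L, NDRG1, SLC2A3 and SLC16A1 had no entry. Several genes have more than 1 start, which gave 72 promoters. A core on either strand was present in 45 of the 72 (62.5%), against 54.1% of the promoters of tested genes and 43.2% of all 35116 promoters. The share was 85.0% (17 of 20) for the HIF targets outside glycolysis and 55.0% (22 of 40) for the glycolytic enzymes. These are shares of promoters, not of genes. HK1 and PFKM supplied many of the enzyme promoters, some of which overlapped, and most of theirs held no core. The gap between these shares therefore cannot be read as a difference between the genes of these roles. By gene, 34 of the 41 held a core in at least 1 promoter. For ACGTG alone, on either strand, the share was 38.9% in the 72 promoters, 21.9% in the promoters of tested genes and 18.5% in all. The targets were listed because they are known targets of HIF, and a match of 5 letters is a description and not a binding site.

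Promoters of 6 genes are shown. ERO1A, BHLHE40 and DDIT4 are the genes whose groups did not overlap. ENO2 had the largest difference among the enzymes. BNIP3 and P4HA1 were among the genes that lay lowest in the library shJUP 3. Each sequence runs 5′ to 3′ on the gene's strand, and its last base is the one before the start. Capitals mark the core on either strand. On the opposite strand ACGTG reads as CACGT, while the form that begins with G then reads as CACGC. The palindrome CACGTG, which is also the E-box that BHLHE40 and MXI1 proteins can bind, holds ACGTG on both strands and counts as 2 matches. ERO1A lies at chr14:52695559-52695808, minus strand, BHLHE40 at chr3:4979187-4979436, plus strand, and DDIT4 at chr10:72273674-72273923, plus strand. ENO2 lies at chr12:6914330-6914579, plus strand, BNIP3 at chr10:131981924-131982173, minus strand, and P4HA1 at chr10:73096867-73097116, minus strand.
ERO1A: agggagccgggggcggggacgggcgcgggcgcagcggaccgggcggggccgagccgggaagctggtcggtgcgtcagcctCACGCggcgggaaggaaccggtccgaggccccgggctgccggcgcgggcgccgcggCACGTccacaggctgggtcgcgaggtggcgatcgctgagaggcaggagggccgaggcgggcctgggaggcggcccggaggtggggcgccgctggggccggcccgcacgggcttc
BHLHE40: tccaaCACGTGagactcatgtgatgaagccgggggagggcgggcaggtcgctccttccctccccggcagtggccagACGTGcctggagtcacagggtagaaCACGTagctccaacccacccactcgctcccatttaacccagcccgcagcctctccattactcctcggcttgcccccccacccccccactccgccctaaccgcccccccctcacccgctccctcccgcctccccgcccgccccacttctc
DDIT4: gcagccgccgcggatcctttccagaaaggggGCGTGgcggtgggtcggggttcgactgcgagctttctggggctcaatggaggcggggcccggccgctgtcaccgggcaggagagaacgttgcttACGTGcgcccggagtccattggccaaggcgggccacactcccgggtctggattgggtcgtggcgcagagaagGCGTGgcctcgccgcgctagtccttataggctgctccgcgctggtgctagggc
ENO2: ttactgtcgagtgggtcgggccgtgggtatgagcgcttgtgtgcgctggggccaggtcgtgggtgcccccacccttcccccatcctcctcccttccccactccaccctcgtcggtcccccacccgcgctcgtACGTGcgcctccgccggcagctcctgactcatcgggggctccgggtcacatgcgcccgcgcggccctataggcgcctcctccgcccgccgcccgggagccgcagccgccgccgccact
BNIP3: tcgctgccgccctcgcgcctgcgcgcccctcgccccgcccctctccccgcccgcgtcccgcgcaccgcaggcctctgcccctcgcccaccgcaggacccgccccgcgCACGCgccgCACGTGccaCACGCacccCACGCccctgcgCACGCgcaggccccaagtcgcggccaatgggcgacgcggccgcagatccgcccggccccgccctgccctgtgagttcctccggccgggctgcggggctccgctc
P4HA1: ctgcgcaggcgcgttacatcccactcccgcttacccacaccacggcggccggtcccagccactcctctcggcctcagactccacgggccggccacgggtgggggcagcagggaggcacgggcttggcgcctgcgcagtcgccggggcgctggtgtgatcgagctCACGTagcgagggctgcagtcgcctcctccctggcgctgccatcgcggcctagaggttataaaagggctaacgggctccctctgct
By this count ERO1A held 2 matches, BHLHE40 held 4, DDIT4 held 3, ENO2 held 1, BNIP3 held 6 and P4HA1 held 1. The core was held both by genes with fold changes above 0 (ERO1A, and ENO2 with overlapping groups) and by genes below 0 (BHLHE40, DDIT4). As 34 of the 41 genes held a core in at least 1 promoter, its presence does not tell these directions apart.

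Levels are counts scaled to the library size (CPM) with TMM factors, a scaling that assumes most genes do not differ. Library totals were 17456121 to 19279514 estimated counts. Fold changes are log2 of shJUP over shNC from edgeR's quasi-likelihood test with its standard error (SE), and p-values are adjusted over all 15867 tested genes (Benjamini-Hochberg, threshold 0.05). All 45 genes passed the filter on low counts. JUP stood at 39.9, 93.6 and 24.6 CPM in shJUP 1 to 3 and at 104, 133 and 101 CPM in shNC 1 to 3. JUP was thus reduced least in shJUP 2 and most in shJUP 3, all 3 lay below the controls, and the difference missed the edgeR test (log2 -1.10, SE 0.44, adjusted p = 0.47). With the library number as a block JUP was called lower by DESeq2 (log2 -1.30, adjusted p = 0.047) and not by edgeR (adjusted p = 0.12). Without both number-2 libraries its log2 fold change was -1.66 (adjusted p = 2.5e-10 in DESeq2 and 0.051 in edgeR). Library shNC 2 stood apart across the transcriptome, as it was the lowest of the 6 libraries for 25.9% of tested genes and the highest for 25.6%. Of 11 markers of an ovarian carcinoma line 10 reached 1 CPM in some library, with PAX8 at 253 to 393 CPM, ERBB2 at 2320 to 6907 CPM and EPCAM at up to 4.62 CPM. The carcinoma marker that did not reach 1 CPM was MUC16, at up to 0.637 CPM. Erythroid markers (HBA1, HBB) and CD3E had 0 counts, and of 6 leukocyte markers only CD68 reached 1 CPM, at 19.5 to 35.8 CPM. Of 4 endothelial markers 3 reached 1 CPM in some library, with KDR the highest at up to 10.8 CPM. Of 8 fibroblast markers 5 did so.

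No hypoxia or glycolysis gene differed between the groups beyond the spread of the cultures by the main test. The edgeR test called 0 of the 45, and 0 of all 15867 genes (percent called 0 higher and 0 lower). Before adjustment, edgeR gave a p under 0.05 to 1 of the 45 higher (ERO1A, 2.22%, against 5.17% of all tested genes) and to 1 lower (BHLHE40, 2.22%, against 4.87%). DESeq2, run as a second tool, called 0 of the 45 as well, where it called 0.674% of genes higher and 0.586% lower. The median log2 fold change was -0.10 over the 45 genes and -0.01 over all tested genes. Of the 45, 30 lay below 0 and 15 above (33.3% above, against 48.6% of all tested genes). In bulk RNA, fewer cells of a type and less RNA per cell cannot be told apart. By role the median was -0.06 for the HIF factors and sensors, -0.27 for the HIF targets outside glycolysis, -0.07 for the transporters and -0.05 for the enzymes.

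The spread of these genes lay mainly within the shJUP group. Library shJUP 3 was the lowest of the 6 for 32 of the 45 genes (71.1%), where it was the lowest for 18.7% of all tested genes. It was the highest for 1 of them, LDHB, against 19.3% of all tested genes. The low genes were 14 of the 17 HIF targets outside glycolysis, 12 of the 19 enzymes, 3 of the 4 transporters and 3 of the 5 factors and sensors. The lowest library was shNC 1 for 7 genes (15.6%, against 15.6% of all), shJUP 1 for 3 (6.67%, against 18.4%) and shNC 2 for 3 (6.67%, against 25.9%). It was shJUP 2 or shNC 3 for 0 (13.5% and 7.68% of all). The highest library was shJUP 2 for 15 genes (33.3%, against 13.1% of all) and shNC 3 for 13 (28.9%, against 7.43%). It was shJUP 1 for 8 (17.8%, against 16.8%), shNC 2 for 8 (17.8%, against 25.6%) and shNC 1 for 0 (17.8% of all). This pattern was described after the values were seen and has no test. The median coefficient of variation of the 45 genes was 27.4% in shJUP and 15.1% in shNC, against 15.4% and 15.3% for all tested genes. At least a 2-fold gap between a pair of shJUP libraries was present for 18 of the 45 (against 16.7% of all genes) and between a pair of shNC libraries for 6 (13.3%, against 16.9%).

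**Figure D1:**
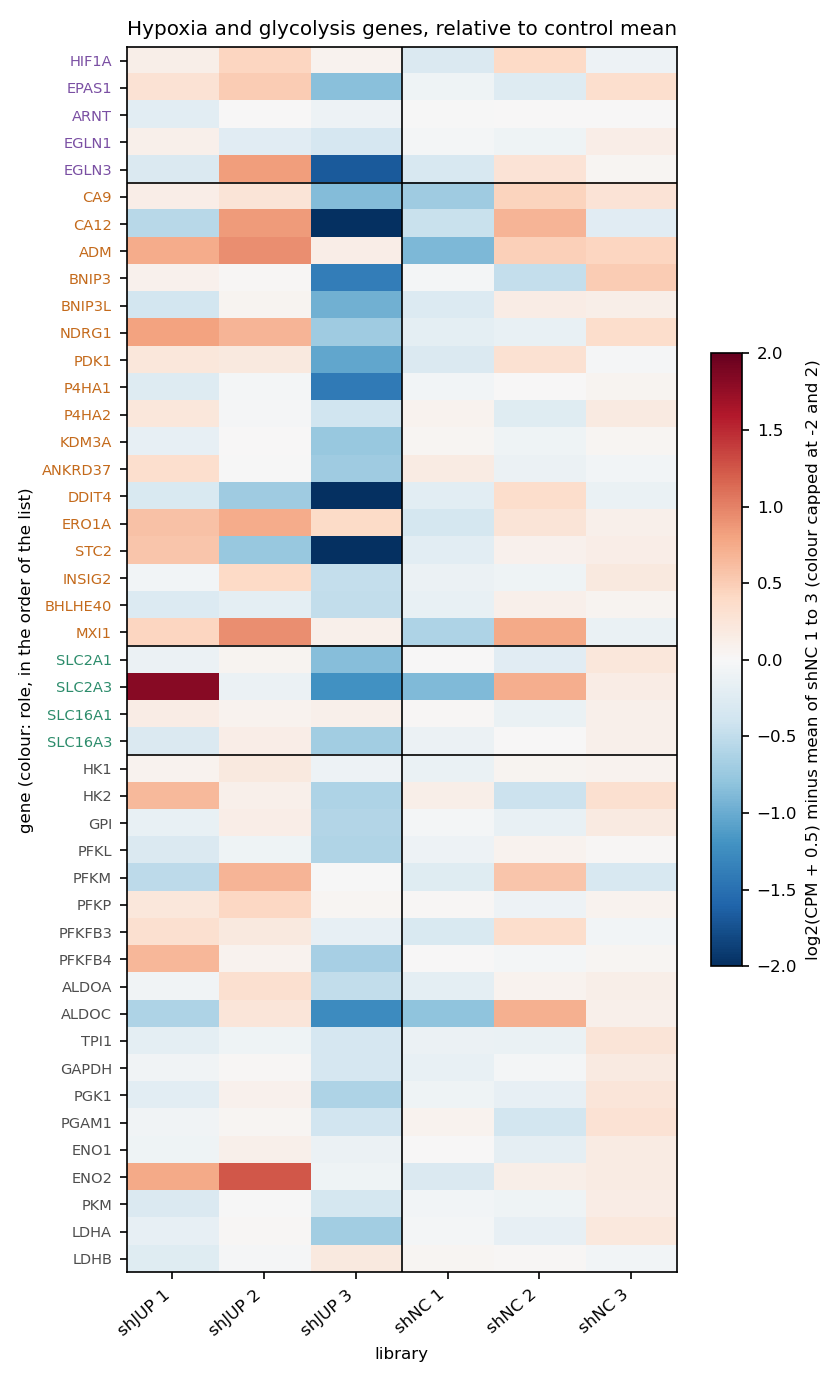
Level of each of the 45 genes in each library, as log2(CPM + 0.5) minus the mean of the 3 control libraries, in blue (below) to red (above), capped at -2 and 2, with rows grouped by role. The column of shJUP 3 is blue for most rows, with DDIT4, CA12 and STC2 at the cap, and red or near white for genes such as HIF1A, ERO1A, SLC16A1 and LDHB.

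**Figure D2:**
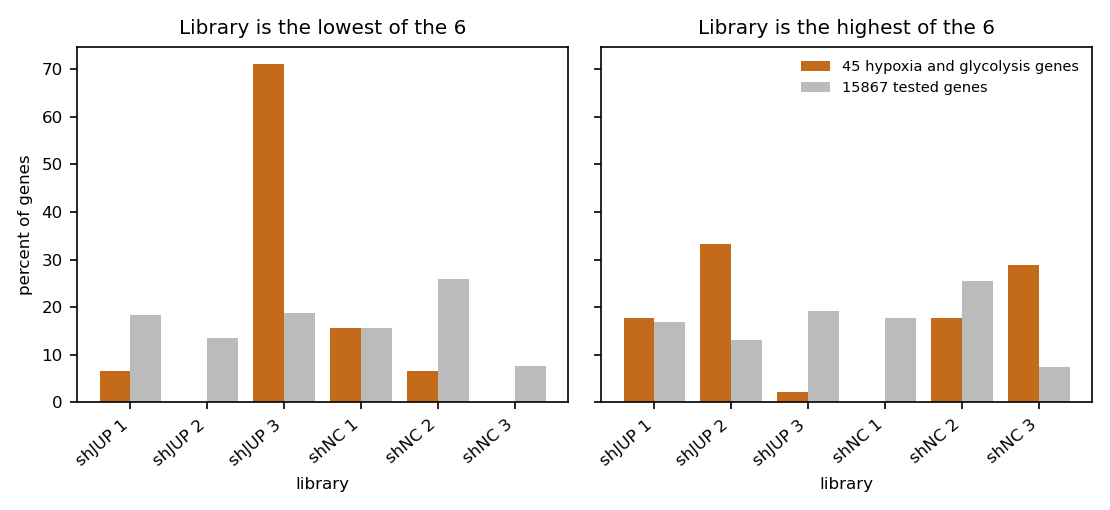
Percent of genes for which each library was the lowest (left) or the highest (right) of the 6, for the 45 hypoxia and glycolysis genes (orange) and all 15867 tested genes (grey). shJUP 3 is the lowest for 71.1% of the 45 genes and 18.7% of all genes.

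Differences within the numbers given in the labels reuse the same shJUP 3 values, so they are not separate support. In number 3 they also draw on shNC 3, the highest library for 13 of the 45 genes (28.9%, against 7.43% of all). The shJUP library lay below the shNC library of its number for 19 of the 45 genes in number 1, for 13 in number 2 and for 39 in number 3, against 52.2%, 50.3% and 50.1% of all tested genes. Median log2 differences were 0.12, 0.13 and -0.68 for numbers 1, 2 and 3, and between -0.02 and 0.00 for all genes. In number 3 the median was -1.01 for the HIF targets outside glycolysis, -0.94 for the transporters, -0.59 for the enzymes and -0.47 for the factors and sensors. JUP itself stood at 0.384, 0.705 and 0.243 of the same-numbered control. Library shJUP 3 was not low in depth (18630181 counts, 24531 genes above 0). Mitochondrially encoded genes took 4.12% of its counts, within the 3.63% to 5.79% of the other 5 libraries. The summed fibroblast markers were at their lowest there, at 12.2 CPM, against up to 264 CPM in shJUP and 44.7 to 454 CPM in shNC, mostly from COL1A1 (8.76 CPM in shJUP 3). COL1A2, LUM, FAP and PDGFRB were also lowest in shJUP 3, each below 1 CPM there, while THY1, PDGFRA and DCN were not. The part of the JUP level or of the fibroblast markers in the low values of shJUP 3 was not tested.

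**Figure D3:**
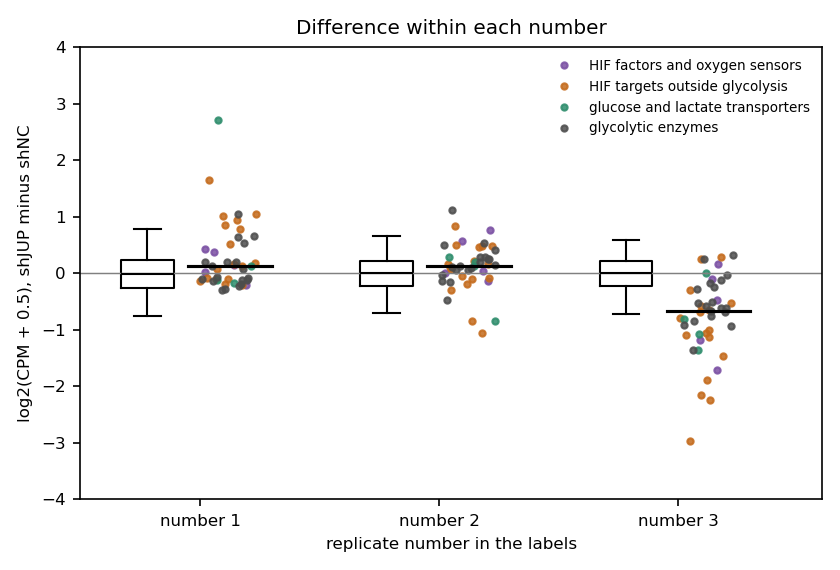
Difference in log2(CPM + 0.5) between the shJUP and shNC libraries of the same number. Boxes show all 15867 tested genes (line: median, box: quartiles, whiskers: 5th to 95th percentile), points show the 45 genes coloured by role, and the thick line is their median. The thick line lies at 0.12 and 0.13 for numbers 1 and 2 and at -0.68 for number 3.

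Without shJUP 3 the median log2 fold change of the 45 genes was 0.09 in place of -0.10, with 26 above 0 in place of 15, while the median of all tested genes stayed at -0.01. For the HIF targets outside glycolysis it was 0.18 in place of -0.27, with 12 of 17 above 0 in place of 4. For the enzymes it was -0.01 in place of -0.05. The edgeR test without shJUP 3 called 0 of the 45 and 0 of all genes, and DESeq2 without it, a setting added after the data were seen, called ENO2 alone among the 45, where it called 0.214% of all genes higher and 0.141% lower. Without both number-2 libraries the median was -0.20, and edgeR called 0 of the 44 genes that passed the filter, where it called 0.119% of all genes higher and 0.189% lower.

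**Figure D4:**
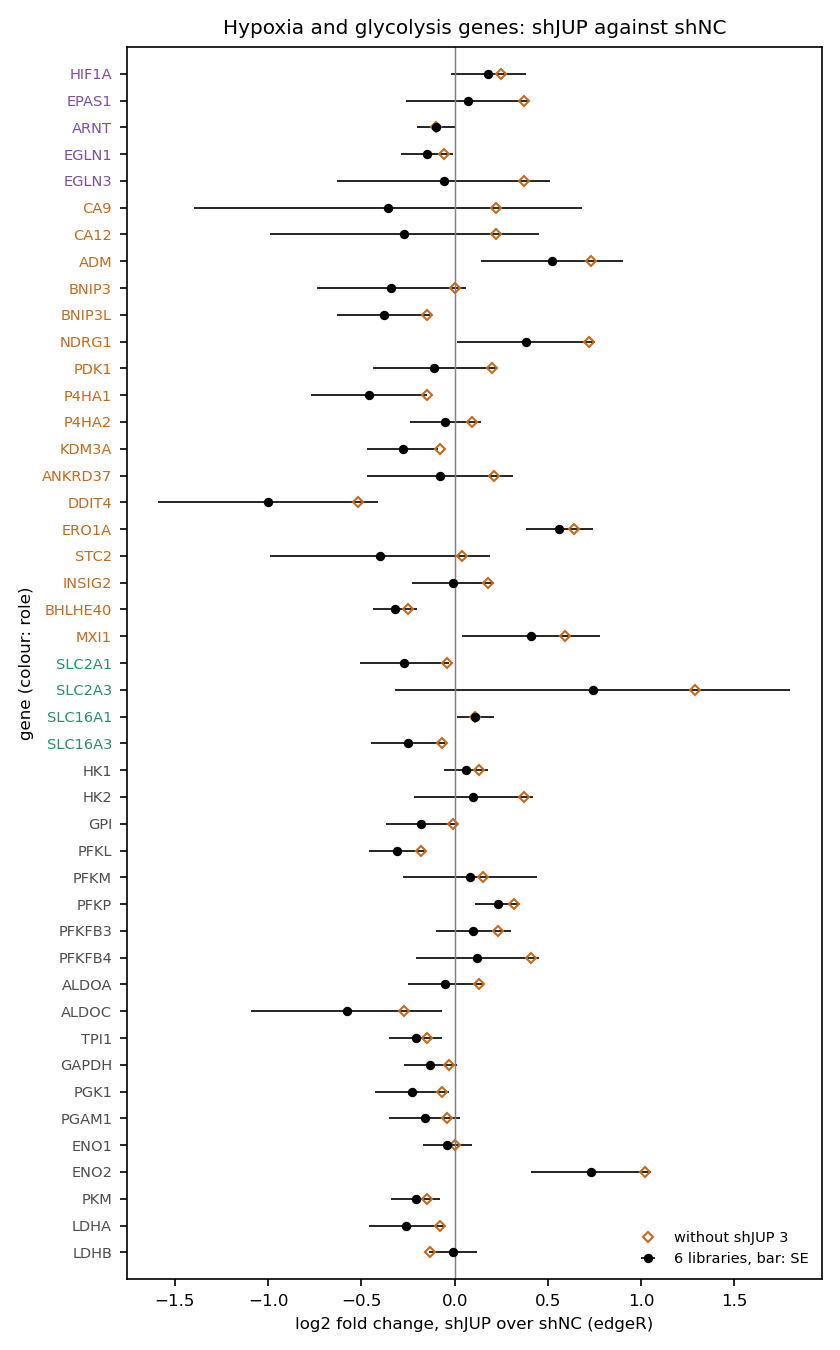
Log2 fold change of shJUP over shNC for each of the 45 genes from edgeR (black, bar: SE, 3 libraries per group) and the same without shJUP 3 (orange diamonds). Most diamonds of the HIF targets lie to the right of the black points, and 0 genes passed the edgeR test in either fit.

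The RNAs of the HIF subunits had overlapping groups and missed the test. HIF1A (ENSG00000100644), the alpha subunit induced at the protein level, stood at 927, 1146 and 892 CPM in shJUP 1 to 3 and at 693, 1122 and 793 CPM in shNC 1 to 3. Both number-2 libraries held the highest values, the groups overlapped, and the log2 fold change was 0.18 (SE 0.20, edgeR adjusted p = 0.77). EPAS1 (ENSG00000116016), the other alpha subunit, measured 156, 180 and 70.8 CPM in shJUP against 120, 106 and 161 CPM in shNC. Its shJUP 3 value lay below every other library, so the group difference was 0.07 (SE 0.33) with that library and 0.37 (SE 0.20) without it. ARNT (ENSG00000143437), the shared beta subunit, was the steadiest of the 3, at 59.5, 69.7 and 64.5 CPM in shJUP and 68.8, 69.4 and 69.3 CPM in shNC (log2 -0.10, SE 0.10). Per kilobase of exon, which allows genes to be compared, HIF1A in the controls was at 204 ± 53 CPM per kilobase, EPAS1 at 25 ± 5.6 and ARNT at 14.0 ± 0.067 (SD, n = 3). HIF1A was therefore the most abundant subunit RNA, with no overlap between its range and that of EPAS1. The ratio of EPAS1 to HIF1A was 0.168, 0.157 and 0.0800 in shJUP and 0.174, 0.0951 and 0.204 in shNC, with overlapping groups. Antisense RNAs at HIF1A held 0.813% to 1.54% of its counts, and since strand use is not given they cannot be fully separated.

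The prolyl hydroxylases EGLN1 and EGLN3 feed back on HIF, and EGLN3 is itself a classical HIF target. EGLN1 (PHD2) stood at 98.6 ± 16 against 109 ± 9.0 CPM (SD, n = 3 each; log2 -0.15, SE 0.14). EGLN3 (PHD3) was scarcer and far more variable, at 9.37, 21.1 and 3.29 CPM in shJUP and 9.23, 14.1 and 12.0 CPM in shNC. Its highest and lowest values were both in shJUP, and the log2 fold change was -0.06 (SE 0.57).

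Among the HIF targets outside glycolysis, 13 of 17 lay below 0 and 4 above, and 0 passed the edgeR test. ERO1A (ENSG00000197930), an oxidase that forms disulfide bonds in the endoplasmic reticulum, was the single gene of the 45 with every shJUP library above every control, where 8.39% of all tested genes did so. It stood at 196, 218 and 171 CPM in shJUP 1 to 3 and at 102, 156 and 140 CPM in shNC 1 to 3. The log2 fold change was 0.56 (SE 0.18). The adjusted p was 0.42 in edgeR and 0.14 in DESeq2. With the library number as a block, DESeq2 called it higher (log2 0.58, adjusted p = 0.0087), where that fit called 1.93% of genes higher and 2.43% lower, and edgeR with the block did not (adjusted p = 0.14, with 0.00630% of genes called lower and 0 higher). DESeq2 without both number-2 libraries called it too (log2 0.61, adjusted p = 0.030, with 1.97% of genes called higher and 2.26% lower). In shJUP 3, where most HIF targets were at their lowest, ERO1A was at 1.22 times the control of its number.

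BHLHE40 and DDIT4 had every shJUP library below every control, as had 8.65% of all tested genes. BHLHE40 (ENSG00000134107), a basic helix-loop-helix repressor, measured 279, 295 and 242 CPM in shJUP against 306, 363 and 350 CPM in shNC. The groups were close, with a log2 fold change of -0.32 (SE 0.12, edgeR adjusted p = 0.45). DDIT4 (ENSG00000168209), also called REDD1, an inhibitor of mTORC1 induced by hypoxia and other stress, measured 134, 101 and 18.9 CPM in shJUP against 143, 211 and 151 CPM in shNC. The 3 shJUP libraries spanned 7.07-fold, so that its log2 fold change of -1.0, the lowest of the 45, carried an SE of 0.59 (edgeR adjusted p = 0.61). Without shJUP 3 it was -0.52 (SE 0.22).

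Several targets were close to the controls in shJUP 1 and 2 and low in shJUP 3. P4HA1, a collagen prolyl hydroxylase subunit, measured 200, 232 and 89.0 CPM in shJUP against 229, 241 and 247 CPM in shNC, where the controls were nearly equal. BNIP3, a mitophagy receptor, measured 152, 146 and 54.7 CPM in shJUP against 139, 103 and 204 CPM in shNC. Its related receptor BNIP3L stood at 180, 241 and 118 CPM against 192, 256 and 252 CPM. For these 3 genes shJUP 3 was at 0.360, 0.269 and 0.469 of the control of its number. PDK1, a kinase that inhibits pyruvate dehydrogenase, measured 61.3, 60.0 and 25.2 CPM in shJUP against 42.6, 64.5 and 51.4 CPM in shNC. The log2 fold changes were -0.46 (SE 0.31) for P4HA1, -0.34 (SE 0.40) for BNIP3, -0.38 (SE 0.25) for BNIP3L and -0.11 (SE 0.33) for PDK1. Near copies of BNIP3 held 1.61% to 8.10% of its counts and an antisense RNA at PDK1 3.15% to 9.11%. How many reads of either gene went to the wrong gene was not tested, so the uncertainty of both levels is not known.

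CA12, a membrane carbonic anhydrase, ranged 10.3-fold within shJUP, at 57.9, 154 and 14.9 CPM in shJUP and 62.2, 137 and 72.6 CPM in shNC. Its highest values were both in number-2 libraries, and the log2 fold change was -0.27 (SE 0.72). STC2, the secreted glycoprotein stanniocalcin 2, stood at 18.0, 6.93 and 2.55 CPM against 10.3, 12.9 and 13.2 CPM. CA9, the carbonic anhydrase often used as a hypoxia marker, was near its detection limit, with 9, 11 and 0 counts in shJUP and 1, 14 and 11 counts in shNC. ANKRD37, an ankyrin repeat protein, was also scarce, at 2.51, 1.87 and 0.956 CPM in shJUP and 2.16, 1.70 and 1.80 CPM in shNC. Neither scarce gene gives a usable fold change here.

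For NDRG1 and ADM, shJUP 1 and 2 lay above every control and shJUP 3 did not. NDRG1, a stress-response gene, measured 385, 353 and 134 CPM in shJUP against 192, 197 and 279 CPM in shNC. The shJUP group held both the highest values and the lowest, and the log2 fold change of 0.38 (SE 0.37) was 0.72 (SE 0.19, edgeR adjusted p = 0.88) without shJUP 3. ADM, which encodes the vasodilator adrenomedullin, stood at 30.7, 34.9 and 19.9 CPM against 9.45, 25.3 and 24.6 CPM (log2 0.52, SE 0.38). MXI1, a MYC antagonist, stood at 47.5, 67.5 and 38.0 CPM against 22.7, 60.2 and 32.0 CPM (log2 0.41, SE 0.37), with groups that overlapped widely. For both ADM and MXI1 the lowest library was shNC 1. The targets not yet given, KDM3A (a histone demethylase), P4HA2 (a collagen hydroxylase subunit) and INSIG2 (a regulator of sterol synthesis), had log2 fold changes of -0.28, -0.05 and -0.01, and shJUP 3 was the lowest library for each.

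**Figure D5:**
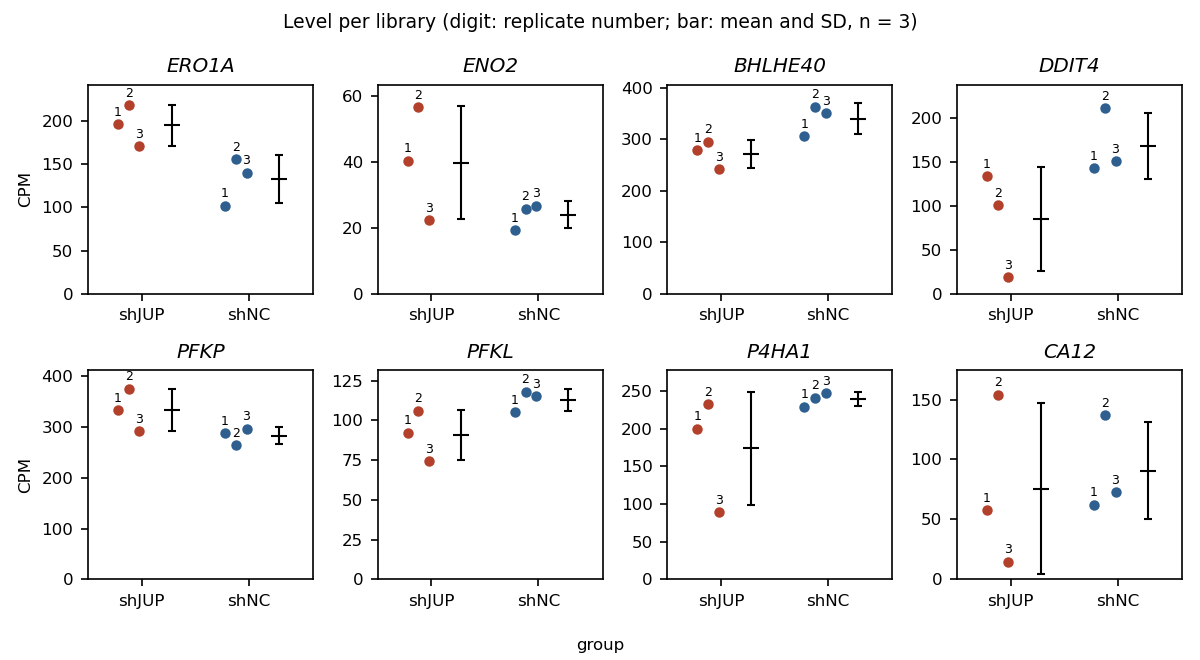
Level in CPM of 8 genes in each library. Points are libraries, the digit is the replicate number, and the bar is mean and SD (n = 3). ERO1A shows every shJUP point above the control points, BHLHE40 and DDIT4 every shJUP point below, and P4HA1 and CA12 a low point for shJUP 3.

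Of the glucose transporters, SLC2A1 was by far the more abundant RNA. SLC2A1 (GLUT1) was at 93.2 ± 14 CPM per kilobase in the controls and SLC2A3 (GLUT3) at 0.302 ± 0.22 (SD, n = 3). SLC2A1 stood at 308 ± 93 against 371 ± 57 CPM (log2 -0.27, SE 0.24), with shJUP 3 the lowest library at 203 CPM. SLC2A3 measured 4.91, 0.907 and 0.159 CPM in shJUP against 0.332, 2.02 and 1.20 CPM in shNC, from 3 to 88 counts per library, and gives no usable fold change. Of the lactate transporters, SLC16A1 (MCT1) was among the steadiest genes, at 183, 173 and 178 CPM in shJUP and 168, 151 and 177 CPM in shNC. SLC16A3 (MCT4), which is a HIF target, measured 219, 296 and 165 CPM in shJUP against 248, 270 and 289 CPM in shNC. The ratio of SLC16A3 to SLC16A1 was lowest in shJUP 3 (0.929) and 1.20 to 1.79 elsewhere, with a group difference of -0.40 on the log2 scale (exact permutation p = 0.30). With 3 libraries against 3 this two-sided test cannot give a p below 0.10, and 12 such ratios were computed.

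Glycolytic enzymes were abundant, taking 1.57% to 2.31% of all counts in a library. Per kilobase the control levels were 2101 ± 292 CPM for LDHA, 1423 ± 173 for ENO1, 1224 ± 142 for GAPDH and 1063 ± 97 for PKM, followed by ALDOA at 536 ± 61 (SD, n = 3). In that order ENO1 and GAPDH, and GAPDH and PKM, differed by less than the sum of their SDs, while LDHA lay above ENO1 and ALDOA below PKM by more than that. Near copies of LDHA, GAPDH, PGK1, TPI1, PGAM1, ENO1 and PKM held at most 0.30% of the counts of the gene. All 19 missed the edgeR test, with 12 below 0 and 7 above and log2 fold changes from -0.58 (ALDOC) to 0.73 (ENO2).

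In the upper steps, from glucose to fructose bisphosphate, isoenzymes of the same step had fold changes of both signs or near 0, and 0 passed the test. HK1, the constitutive hexokinase, stood at 273 ± 29 against 263 ± 19 CPM (SD, n = 3 each; log2 0.06, SE 0.12). HK2, the inducible hexokinase, measured 138, 94.3 and 57.2 CPM in shJUP against 94.9, 65.0 and 110 CPM in shNC, with shJUP 1 highest and shJUP 3 lowest. GPI, the isomerase of the next step, stood at 351 ± 86 against 397 ± 47 CPM. PFKP, the platelet-type phosphofructokinase, measured 332, 375 and 291 CPM in shJUP against 288, 264 and 296 CPM in shNC (log2 0.23, SE 0.12, edgeR adjusted p = 0.57). PFKL, the liver type, measured 92.2, 106 and 74.2 CPM in shJUP against 105, 118 and 115 CPM in shNC (log2 -0.31, SE 0.15, edgeR adjusted p = 0.54). Each gene alone had overlapping groups, but their ratio did not overlap. PFKP to PFKL was 3.59, 3.51 and 3.90 in shJUP 1 to 3 and 2.74, 2.24 and 2.57 in shNC 1 to 3. The difference of 0.55 on the log2 scale has an exact permutation p of 0.10, the smallest the test can give, and it is 1 of the 12 ratios. It was the single ratio of the 12 without overlap, and shJUP 3 gave its highest value, not its lowest. Among single genes, 8.39% of all tested genes had no overlap and were higher, and 8.65% were lower. Without any group difference about 0.10 of ratios would reach this p, and 1 of 12 is near that share. PFKM, the muscle type, was scarce, at 10.1, 24.0 and 14.8 CPM in shJUP and 12.5, 21.9 and 11.8 CPM in shNC, with both number-2 libraries highest.

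PFKFB3 and PFKFB4 make the fructose 2,6-bisphosphate that activates phosphofructokinase. PFKFB3 measured 156, 143 and 111 CPM in shJUP against 101, 160 and 121 CPM in shNC (log2 0.10, SE 0.20). PFKFB4 stood at 14.5, 9.44 and 5.52 CPM in shJUP against a narrow 9.01, 8.77 and 9.25 CPM in shNC (log2 0.12, SE 0.33). The shJUP values of PFKFB4 thus lay on both sides of the controls.

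From aldolase to pyruvate kinase, the abundant enzymes all lay slightly below 0 without passing the test. ALDOA, TPI1, GAPDH, PGK1, PGAM1, ENO1 and PKM had log2 fold changes of -0.05, -0.21, -0.13, -0.23, -0.16, -0.04 and -0.21, with SEs of 0.13 to 0.20. Library shJUP 3 was the lowest for each of these except ENO1, at 0.553 (PGK1) to 0.705 (PKM) of the control of its number, and shNC 3 was the highest for each except ALDOA. PKM measured 2859, 3506 and 2741 CPM in shJUP against 3367, 3306 and 3889 CPM in shNC, and TPI1 at 452, 488 and 407 CPM against 474, 471 and 613 CPM. Counts are per gene, so the M1 and M2 isoforms of PKM were not separated. ALDOC, the brain-type aldolase, was scarce, at 5.02, 9.50 and 3.03 CPM in shJUP and 4.31, 13.3 and 8.54 CPM in shNC (log2 -0.58, SE 0.51). GAPDH, often used as a reference gene, was at 2138 CPM in shJUP 3 and 2453 to 3072 CPM in the other 5 libraries.

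ENO2, the neuron-type enolase, differed most among the enzymes. It stood at 40.3, 56.5 and 22.2 CPM in shJUP 1 to 3 and at 19.3, 25.8 and 26.7 CPM in shNC 1 to 3. Both shJUP 1 and 2 lay above every control, while shJUP 3 lay among them. The log2 fold change was 0.73 (SE 0.32). The adjusted p was 0.51 in edgeR and 0.32 in DESeq2. Without shJUP 3 it was 1.02 (SE 0.22), which DESeq2 called (adjusted p = 0.026) and edgeR did not (adjusted p = 0.88). ENO2 remained a minor isoenzyme, with a ratio to ENO1 of 0.0127, 0.0156 and 0.00722 in shJUP and 0.00579, 0.00877 and 0.00709 in shNC.

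LDHA and LDHB make the subunits of lactate dehydrogenase, and LDHA is the HIF target of the pair. LDHA measured 5512, 6305 and 3808 CPM in shJUP against 6002, 5513 and 7196 CPM in shNC (log2 -0.26, SE 0.20). LDHB measured 284, 330 and 384 CPM in shJUP against 345, 340 and 322 CPM in shNC (log2 -0.01, SE 0.13). The library with the least LDHA thus held the most LDHB. Their ratio was 19.4, 19.1 and 9.89 in shJUP and 17.4, 16.2 and 22.3 in shNC, and the group difference of -0.26 on the log2 scale (exact permutation p = 0.70) rests on shJUP 3.

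Further genes of the pathway, in lists outside the 45, were read the same way. Of 31 tested HIF regulators and further targets 0 passed edgeR or DESeq2, with 23 below 0, 8 above and a median log2 of -0.20, which was -0.03 without shJUP 3. For 18 of the 31 shJUP 3 was the lowest library (against 18.7% of all tested genes), and it was the highest for 0 (against 19.3%). Among the 18 was VEGFA (268, 247 and 104 CPM in shJUP, 250, 320 and 329 CPM in shNC). Of the 31, 3 had every shJUP library below every control (PLOD1, LOX and VHL, against 8.65% of all tested genes) and 1 had every one above (HMOX1, against 8.39%). These 4 had the smallest edgeR p-values of the list. In DESeq2 the adjusted p was 0.050 for PLOD1 (rounded, not called), 0.057 for LOX, 0.13 for VHL and 0.10 for HMOX1. PLOD1, a collagen lysyl hydroxylase, stood at 268, 406 and 231 CPM against 465, 528 and 537 CPM (log2 -0.76, SE 0.21, edgeR adjusted p = 0.40). LOX, the collagen crosslinking oxidase, stood at 90.3, 192 and 75.1 CPM against 233, 256 and 263 CPM (log2 -1.07, SE 0.33, edgeR adjusted p = 0.42). Without both number-2 libraries LOX was called lower by edgeR (log2 -1.58, adjusted p = 0.042) and by DESeq2 (adjusted p = 4.8e-20). VHL, which recognises hydroxylated HIF alpha, stood at 113, 148 and 93.8 CPM against 170, 220 and 159 CPM (log2 -0.63, SE 0.20, edgeR adjusted p = 0.42). HMOX1, the heme oxygenase that also answers oxidative stress, stood at 110, 94.8 and 87.6 CPM against 52.8, 13.6 and 55.4 CPM (2.40-fold higher, edgeR adjusted p = 0.45). DESeq2 with the block for the library number called VHL (adjusted p = 1.1e-05) and PLOD1 (adjusted p = 2.2e-04) lower, 2 of the 31, where it called 2.43% of all genes lower. edgeR with that block called neither (adjusted p = 0.077 and 0.12). DESeq2 without both number-2 libraries called 6 of the 31, HMOX1 higher and PLOD1, VHL, FAM162A, IGFBP3 and LOX lower, where it called 1.97% of all genes higher and 2.26% lower.

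Of 35 tested genes in branches from glycolysis (pentose phosphate, glycogen, serine, hexosamine and pyruvate entry) 0 passed edgeR or DESeq2, with 21 above 0, 14 below and a median log2 of 0.07. Library shJUP 3 was the lowest for 10 of the 35 (against 18.7% of all tested genes) and the highest for 6 (against 19.3%). Groups did not overlap for 4 of the 35 higher (PYGL, TALDO1, MPC2 and DLD, against 8.39% of all tested genes) and 2 lower (BPGM and PDP2, against 8.65%). PYGL, liver glycogen phosphorylase, measured 123, 162 and 137 CPM in shJUP against 108, 113 and 109 CPM in shNC (log2 0.36, SE 0.13, edgeR adjusted p = 0.45). TALDO1, the transaldolase of the pentose phosphate pathway, stood at 159, 185 and 158 CPM against 147, 139 and 138 CPM (log2 0.25, SE 0.11). PHGDH, the first enzyme of serine synthesis, stood at 35.9, 24.0 and 12.5 CPM against 61.0, 31.1 and 53.0 CPM (log2 -1.0, SE 0.39), with overlapping groups. DESeq2 with the block called PHGDH (adjusted p = 0.012) and PSAT1, the next enzyme of that route (adjusted p = 0.0040), both lower, 2 of the 35, against 2.43% of all genes called lower by that fit. edgeR with the block called neither (adjusted p = 0.18 and 0.14). DESeq2 without both number-2 libraries called PSAT1 alone of the 35, as lower (adjusted p = 0.026). That fit called 1.97% of all genes higher and 2.26% lower, so 1 of the 35 is near the share of all genes.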

How the data were processed

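The deposited table holds estimated counts per Ensembl gene (expected counts, not scaled between libraries) for 3 shJUP and 3 shNC libraries. Per the labels' protocols, oligo(dT) beads selected the messenger RNA that was sequenced. The tools named, without their roles, are STAR 2.7.9a, RSEM 1.3.3, edgeR 3.32.1 and DESeq2 1.26.0, per the submitters' processing notes. The sources used here give no build, annotation release or strand setting. Of 60695 rows, 31 without a gene ID were left out, and 60463 of 60664 IDs matched a symbol. Values were not whole for 33.9% to 36.3% of genes above 0 and were rounded.

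The two-sided quasi-likelihood test of edgeR 4.0.16 (R 4.3.3) ran on all 15867 genes that filterByExpr kept, with TMM factors of 0.978 to 1.028. SE was computed from the fold change and the F statistic. Alternatives were other scalings, filters, DESeq2 1.42.0, limma-voom (limma 3.58.1), a block for the replicate number, and libraries left out. Same-numbered libraries correlated at 0.14, 0.51 and 0.20 in their deviations from the group means. What a number marks is not stated in the labels. Of the other pairings, shJUP 3 with shNC 1 (0.39) and shJUP 1 with shNC 3 (0.15) correlated more than numbers 3 and 1 did, so number 2 alone stood out as a pair. Ratios of related genes used CPM plus 0.5. Levels per kilobase used the union of the exons of protein-coding transcripts in GENCODE 29 (basic set), with untranslated parts included. The fits were tested on simulated counts with planted fold changes. That simulation held no library or replicate effect, so it does not cover libraries that stand apart, as some did here.

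The genes and lists were chosen with earlier results of these data known. All 45 genes are named, and given in full are the 8 genes with the smallest p-values, those without overlap, those with a 2-fold gap within a group, and the HIF subunits. p-values measure only the spread between these 6 cultures.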

Additional observations from a re-analysis of the deposited data

How the results depend on the processing

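Across all genes edgeR called 5 when unfiltered, 49 without both number-2 libraries, and 1 when the replicate block was added. DESeq2 called 200, which became 692 under the replicate block, 673 without both number-2 libraries and 58 without library shJUP 3 (a setting added after the data were seen). Every other setting run called 0. Of the 45 genes, 1 was called in each of 3 settings: ERO1A by DESeq2 with the replicate block and by DESeq2 without both number-2 libraries, and ENO2 by DESeq2 without library shJUP 3. The replicate block changed no other call among the 45. Over 17 settings 27 of the 45 kept their direction and 18 did not.

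The log2 fold changes of those 18 ranged as follows with 1 library left out: EPAS1 -0.19 to 0.37, EGLN3 -0.90 to 0.37, CA9 -0.90 to 0.22, CA12 -1.32 to 0.22, PDK1 -0.31 to 0.20, P4HA2 -0.21 to 0.09, ANKRD37 -0.41 to 0.21, STC2 -1.35 to 0.04, INSIG2 -0.26 to 0.18, SLC2A3 -1.14 to 1.36, HK1 -0.02 to 0.13, HK2 -0.24 to 0.37, PFKM -0.31 to 0.42, PFKFB3 -0.04 to 0.30, PFKFB4 -0.26 to 0.41, ALDOA -0.27 to 0.13, ENO1 -0.12 to 0.06 and LDHB -0.13 to 0.09. DESeq2 without library shJUP 3 gave EGLN3 0.37, CA9 0.22, CA12 0.22, PDK1 0.20, P4HA2 0.10, ANKRD37 0.22, STC2 0.04, INSIG2 0.18, ALDOA 0.13 and ENO1 0.01. Without both number-2 libraries EPAS1 was -0.31, HK2 -0.06 and LDHB 0.01 with edgeR and DESeq2 alike. limma-voom gave EPAS1 -0.02 and SLC2A3 -0.05, DESeq2 with the replicate block SLC2A3 -0.36, and library totals as the only scaling INSIG2 0.02 and LDHB 0.02. The cause was not tested.

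Ratio differences on the log2 scale that turned with 1 library left out were HK2 to HK1 (-0.30 to 0.24), PFKFB4 to PFKFB3 (-0.31 to 0.10), LDHA to LDHB (-0.43 to 0.06), SLC2A3 to SLC2A1 (-0.26 to 0.95), EPAS1 to HIF1A (-0.55 to 0.12), BNIP3L to BNIP3 (-0.21 to 0.30 around a value of 0.00) and EGLN3 to EGLN1 (-0.87 to 0.33). Depth limits CA9, ANKRD37 and SLC2A3, which had few counts.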
